A study of Mus musculus with 6 samples.

Results

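Hepatokines are proteins that the liver releases into the blood and that act on metabolism at a distance. The mRNA of 9 of them, *Fgf21*, *Angptl4*, *Igfbp1*, *Igfbp2*, *Angptl8*, *Gdf15*, *Lect2*, *Fetub* and *Ahsg*, was followed liver by liver in WT and *Sirt7* KO mice. These 9 were chosen by name as liver-secreted metabolic hormones and are 9 of the 54115 annotated genes in the tables. All 9 had enough reads to be tested. The livers came from 3 WT and 3 *Sirt7* KO male mice, all 24 months old and all fasted for 16 h before collection. SIRT7 is a deacetylase of the sirtuin family. The KO mice came from 1 *Sirt7* knockout line that had been backcrossed onto C57BL/6J, and WT and KO mice were bred as littermates. No fed and no young liver was among the samples. Each library was made from 1 ng of total RNA of a whole-liver extract, and 9994860 to 13424776 reads per liver were assigned to transcripts. In such bulk RNA, fewer cells of a type and less RNA per cell cannot be told apart.

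The hepatokines answer to opposite states of nutrition. In fasting, free fatty acids activate the nuclear receptor PPAR alpha, which is known to switch on *Fgf21* and *Angptl4*, and falling insulin releases FOXO1, which is known to switch on *Igfbp1*. Feeding and insulin are known to raise *Angptl8*. A further route is the integrated stress response, in which the transcription factor ATF4 is known to raise *Fgf21* and *Gdf15*. *Ahsg*, *Fetub* and *Lect2* encode plasma proteins of the hepatocyte.

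Letters that match known response elements were looked for in the promoters. Of the 9 genes, 8 had at least 1 window in the RefSeq promoter table of GRCm38.p6, all but *Angptl4*, and the 250 bases before each annotated start were searched on both strands. The windows of *Fgf21*, *Angptl8* and *Igfbp1* are shown because they hold the rarest motifs found, given here 5′ to 3′ along the gene. In the first line the capitals mark TGATGCAAT on the reverse strand, the letters of a C/EBP-ATF response element, and the E-box CACGTG. In the second the capitals mark TGATGCAAT on the forward strand, and in the third CAAAACAA, the core of an insulin response sequence bound by FOXO factors.
*Fgf21*, chr7:45615491-45615740, minus strand: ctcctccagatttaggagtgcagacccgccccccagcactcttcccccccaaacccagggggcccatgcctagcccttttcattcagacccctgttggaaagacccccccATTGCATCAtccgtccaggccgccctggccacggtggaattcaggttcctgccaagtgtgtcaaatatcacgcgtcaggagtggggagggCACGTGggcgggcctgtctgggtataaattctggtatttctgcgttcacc
*Angptl8*, chr9:21835260-21835509, plus strand: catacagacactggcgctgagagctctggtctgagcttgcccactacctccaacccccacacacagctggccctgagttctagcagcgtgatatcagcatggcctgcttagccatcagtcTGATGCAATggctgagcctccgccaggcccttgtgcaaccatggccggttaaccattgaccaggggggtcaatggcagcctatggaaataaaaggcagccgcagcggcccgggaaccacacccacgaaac
*Igfbp1*, chr11:7197537-7197786, plus strand: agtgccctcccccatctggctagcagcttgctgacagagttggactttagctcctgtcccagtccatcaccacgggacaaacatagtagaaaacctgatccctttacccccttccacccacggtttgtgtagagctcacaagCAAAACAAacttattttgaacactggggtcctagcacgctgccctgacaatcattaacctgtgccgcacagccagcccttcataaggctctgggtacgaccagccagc

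TGATGCAAT lay 140 to 132 bases before the start of *Fgf21* and 130 to 122 bases before that of *Angptl8*. It was present in 55 of the 32841 windows of all genes, or 0.167%, and the looser form TGATGNAAN, which contains it, in 3.43%. CAAAACAA lay 108 to 101 bases before the start of *Igfbp1* and was present in 2.21% of all windows. CACGTG was present in windows of *Fgf21*, *Gdf15* and *Igfbp2* and in 6.02% of all windows. TATAAA was present in windows of *Fgf21* and *Fetub* and in 12.4% of all windows, and the nuclear receptor motif AGGTCA in a window of *Gdf15* and in 14.0% of all windows. These motifs were chosen after the promoters had been seen. A match of letters is a description and not a site of binding.

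In TPM, a transcript level corrected for length, the 9 hepatokine mRNAs differed widely in level. *Ahsg*, which encodes fetuin-A, an inhibitor of calcification and of the insulin receptor, averaged 3612 TPM over the 6 livers, rank 39 among all genes. *Igfbp2*, an IGF carrier, followed at 696 TPM and *Fetub*, the fetuin-A paralog, at 381 TPM. *Angptl4* averaged 116 TPM, *Lect2* 93.5 TPM and *Angptl8* 44.3 TPM. *Igfbp1* averaged 20.9 TPM, *Gdf15* 4.80 TPM and *Fgf21* 4.41 TPM, with *Fgf21* at rank 7047. The ranges of neighbours over the 6 livers overlapped for *Angptl4* and *Lect2*, *Angptl8* and *Igfbp1*, *Igfbp1* and *Gdf15*, and *Gdf15* and *Fgf21*, so the order within these pairs was not separated from the spread between livers. The last place of *Fgf21* held for the mean over all 6 livers but not for WT, where it averaged 5.70 ± 1.56 TPM and *Gdf15* 4.62 ± 1.2 TPM (SD, n = 3 each), since KO mice 2 and 3 had 0.125 and 0.344 TPM of *Fgf21*.

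**Figure D1:**
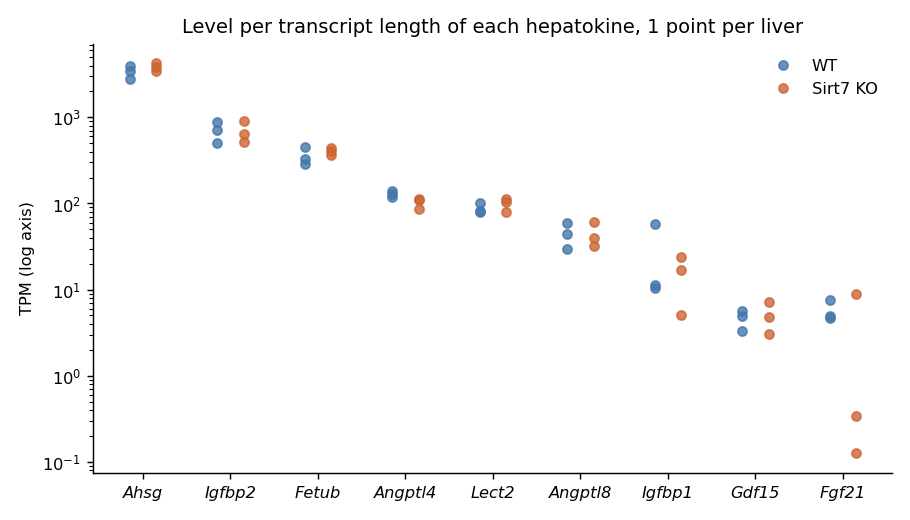
Level of each hepatokine mRNA in TPM on a log axis, with 1 point per liver (blue, 3 WT; orange, 3 *Sirt7* KO), ordered by the mean over 6 livers. *Ahsg* averages 3612 TPM and *Fgf21* 4.41 TPM, and in *Fgf21* 2 of the 3 KO livers lie far below the other 4 livers.

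The targeted gene was read first. *Sirt7* had 55.2, 45.5 and 47.3 CPM, read counts brought to a common library size with TMM scaling, in the 3 WT livers and 28.6, 41.7 and 40.8 CPM in the 3 KO livers. The groups did not overlap, with KO lower, as in 8.09% of all genes tested. The log2 fold change was -0.41 (SE 0.18, adjusted p = 0.42 by the edgeR quasi-likelihood test). The full-length transcript had 429, 381 and 408 estimated reads in WT and 124, 135 and 77.5 in KO, so on both of these measures every KO library was below every WT library. In TPM, which divides reads by the length of the transcripts they were assigned to, the order was the reverse, with 34.4, 28.3 and 27.3 TPM in WT and 34.7, 49.9 and 68.0 TPM in KO. The check of the labels by *Sirt7* therefore rests on the reads and on the full-length transcript, and not on TPM. It is a weak check, since *Sirt7* reads remained in every KO liver, and why they did was not tested. The summed level of the hepatocyte markers was 40783 to 46500 CPM in WT and 44421 to 55087 CPM in KO (4 of 5 marker symbols found, none at 0), and the livers therefore showed their labelled tissue. Of the other cell types, *Sirt7* KO mouse 1 held the highest sums of Kupffer cell markers (108 CPM against 35.9 to 88.0 CPM in the other livers), stellate cell markers (208 CPM against 133 to 205 CPM), lymphocyte markers (8.24 CPM against 2.99 to 6.14 CPM) and adipocyte markers (3.48 CPM against 0.193 to 1.27 CPM). In other types another liver was highest. KO mouse 3 held the highest sums of liver endothelium (90.8 CPM), red blood cell (915 CPM) and pancreatic acinar markers (1.54 CPM). WT mouse 2 held the highest sum of cholangiocyte markers (72.7 CPM). The part of these cell types in the results below was not tested.

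No hepatokine mRNA differed between WT and *Sirt7* KO livers after adjustment. With a call set at an adjusted p under 0.05 and a fold change over 1.5, 0 of the 9 were called, beside 1 of 12524 genes tested (0.00798%). Without adjustment, 0 of the 9 had p under 0.05, beside 11.3% of all genes. DESeq2 called 0 of the 9 beside 2.11% of its genes, and had 0 of the 9 at an unadjusted p under 0.05. Also 0 of the 9 were called by DESeq2 with transcript length offsets, beside 1.81% of its genes, by edgeR with no filter on low counts, beside 2.27%, and without WT mouse 1, beside 0.0155%. The median log2 fold change of the 9 was 0.07, with 6 above and 3 below 0, and that of all genes tested was -0.01, with 50.7% below 0. In 1 of the 9, *Ahsg*, the values of the 2 groups did not overlap, beside 16.8% of all genes, 8.74% with KO higher, as in *Ahsg*, and 8.09% with KO lower. A p that misses the threshold does not show equal levels, and the 95% intervals of the log2 fold changes are given with each gene below.

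**Figure D2:**
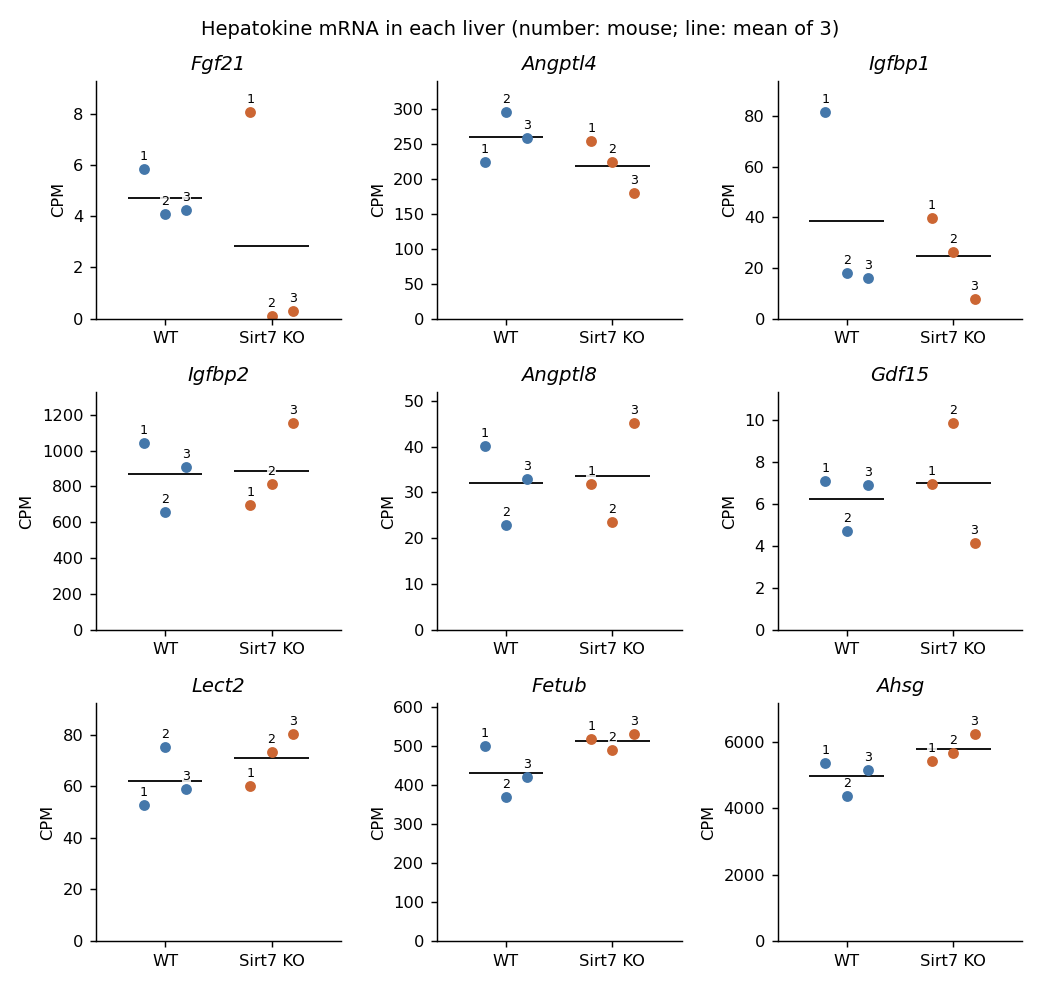
CPM of each hepatokine mRNA in each liver on linear axes that start at 0, with 1 point per mouse (blue, WT; orange, *Sirt7* KO; the number is the mouse) and a line at the mean of 3. *Fgf21* has 0.106 and 0.289 CPM in KO mice 2 and 3 and 8.06 CPM in KO mouse 1, while *Ahsg* alone shows 2 groups that do not overlap.

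*Fgf21*, the fasting and stress hormone that signals through FGF receptors with the co-receptor beta-Klotho, split the KO livers. It had 5.84, 4.08 and 4.22 CPM in the WT livers and 8.06, 0.106 and 0.289 CPM in the KO livers. The highest and the 2 lowest of the 6 values were thus all in the KO group, with the WT livers in between. The values rested on 69, 45 and 57 reads in WT and on 88, 1 and 3 reads in KO, all assigned to its only transcript, which lies on chromosome 7 from 45613886 to 45615490 (GRCm38, minus strand). The exact 95% binomial intervals, which cover counting error only, were 6.46 to 9.93 CPM for KO mouse 1, 0.00268 to 0.590 CPM for KO mouse 2 and 0.0596 to 0.845 CPM for KO mouse 3, so counting error did not bridge the split. The ratio of KO mouse 1 to KO mouse 3 was 27.9 (9.23 to 138), and that of the lowest WT liver to KO mouse 3 was 14.1 (4.53 to 71.1). With 1 read, the ratio of KO mouse 1 to KO mouse 2 was 76.0 with an interval of 13.3 to 3037.

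The mean level of *Fgf21* was 4.71 ± 0.98 CPM in WT and 2.82 ± 4.54 CPM in KO (SD, n = 3 each). The coefficient of variation was 20.8% in WT and 161% in KO, the latter above that of 99.8% of the genes tested in the same livers. The log2 fold change was -0.72 (SE 1.03, 95% interval -3.05 to 1.60, adjusted p = 0.84 by edgeR), and the groups overlapped. Each liver was also left out in turn. Without KO mouse 1 the log2 fold change was -4.48 (SE 0.60, 95% interval -5.93 to -3.17, adjusted p = 0.02 by edgeR), and *Fgf21* was called lower in KO, beside 1.95% of the 12921 genes tested in that fit. Without any other liver it was -0.81 to -0.17 and was not called. The group difference in *Fgf21* therefore depended on 1 liver of the 6.

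**Figure D3:**
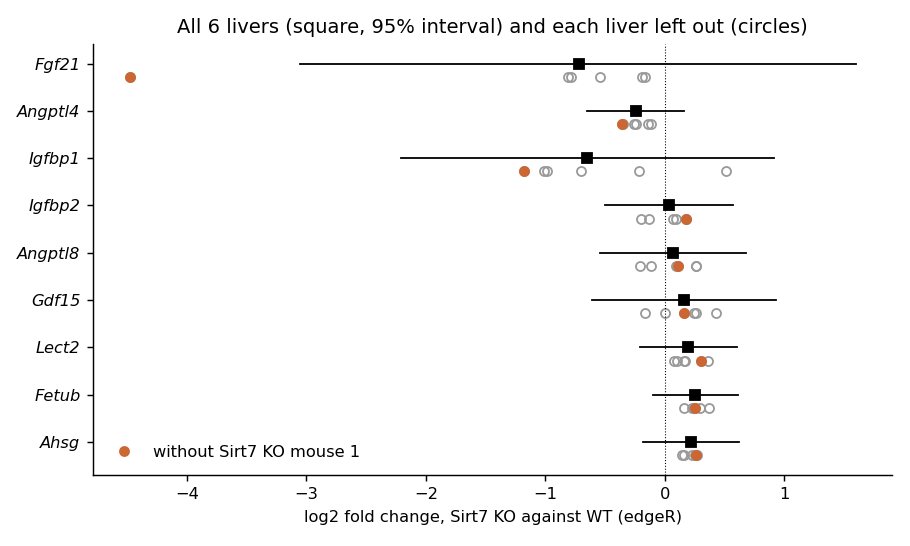
Log2 fold change of each hepatokine mRNA, *Sirt7* KO against WT, from edgeR. The squares and lines show all 6 livers with the 95% interval, the open circles each of the other 5 livers left out in turn, and the filled circle the value without KO mouse 1, which for *Fgf21* is -4.48 against -0.72 with all livers.

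*Angptl4* shares PPAR alpha as a regulator with *Fgf21* and encodes an inhibitor of lipoprotein lipase that keeps circulating triglyceride from being taken up. It had 223, 295 and 258 CPM in WT and 253, 223 and 179 CPM in KO. The 2 groups overlapped, with means of 259 ± 35.8 and 218 ± 37.3 CPM (SD, n = 3 each), and KO mouse 3 was lowest. This gave a log2 fold change of -0.24 (SE 0.18, 95% interval -0.65 to 0.16, adjusted p = 0.66 by edgeR). On the TPM scale the same livers did not overlap, with 119, 138 and 129 TPM in WT and 113, 109.7 and 87.2 TPM in KO, and the same held for CPM scaled by total counts alone. That scaling by total counts moved the median log2 fold change of all genes to -0.11. Most *Angptl4* reads, 83.6 to 87.7% per liver, were assigned to a transcript annotated for nonsense-mediated decay, *Angptl4*-202, and 12.2 to 16.4% to the protein-coding *Angptl4*-201. These shares are Salmon's estimates from short reads, and their ranges in WT and KO overlapped.

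*Igfbp1* encodes a binding protein that sequesters IGF-1 and is held down by insulin. It had 81.6, 18.2 and 16.2 CPM in WT and 39.7, 26.4 and 7.71 CPM in KO. WT mouse 1 was highest and KO mouse 3 lowest, and the KO values lay on both sides of those of WT mice 2 and 3. The coefficient of variation was 96.2% in WT and 65.4% in KO, so *Igfbp1* was the most variable of the 9 within WT. In the edgeR fit the log2 fold change was -0.65 (SE 0.69, 95% interval -2.21 to 0.91, adjusted p = 0.78 by edgeR). Without WT mouse 1 its sign turned, to 0.51 (adjusted p = 0.86), and the range over all livers left out was -1.18 to 0.51.

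*Igfbp2*, the other IGF-binding protein, had 1039.6, 659.8 and 906 CPM in WT and 697, 814 and 1153 CPM in KO. Both groups spanned almost the same range, with means of 869 ± 193 and 888 ± 237 CPM (SD, n = 3 each). Between the groups the log2 fold change was 0.03 (SE 0.24, 95% interval -0.50 to 0.57, adjusted p = 0.98 by edgeR), and with scaling by total counts it was -0.09.

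*Angptl8* encodes a secreted regulator of lipoprotein lipase. It had 40.2, 22.9 and 32.9 CPM in WT and 31.8, 23.6 and 45.1 CPM in KO, and the groups overlapped over nearly their whole range. The log2 fold change was 0.07 (SE 0.27, 95% interval -0.54 to 0.68, adjusted p = 0.95 by edgeR), and with scaling by total counts it was -0.06. The gene lies on chromosome 9 from 21835510 to 21837347 inside *Dock6* on the opposite strand, with 0 exon bases in common.

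*Gdf15*, a stress hormone that acts on the hindbrain receptor GFRAL, is the other ATF4-responsive member. It had 7.11, 4.72 and 6.88 CPM in WT and 6.96, 9.85 and 4.14 CPM in KO, from 43 to 93 reads per liver. Both the highest and the lowest value were in the KO group, and they were in KO mice 2 and 3, the livers in which *Fgf21* had 1 and 3 reads. Its log2 fold change was 0.16 (SE 0.34, 95% interval -0.61 to 0.93, adjusted p = 0.91 by edgeR), with -0.17 to 0.43 over the livers left out. Counting error was not the limit here, since the exact 95% binomial intervals of KO mouse 2 (7.95 to 12.1 CPM) and KO mouse 3 (3.0 to 5.58 CPM) did not meet.

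The plasma proteins of the hepatocyte had the smallest standard errors, with *Angptl4*. *Lect2*, a chemotactic hepatokine linked to insulin resistance in muscle, had 52.5, 75.3 and 58.7 CPM in WT and 60.1, 73.1 and 80.1 CPM in KO. Its groups overlapped and its log2 fold change was 0.19 (SE 0.18, 95% interval -0.21 to 0.60, adjusted p = 0.74 by edgeR). *Fetub* had 501, 369 and 421 CPM in WT and 518, 489.8 and 531 CPM in KO. Only WT mouse 1 reached into the KO range, and the log2 fold change was 0.25 (SE 0.16, 95% interval -0.10 to 0.61, adjusted p = 0.59 by edgeR). The KO livers were close together in *Fetub*, with a coefficient of variation of 4.12% against 15.4% in WT.

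*Ahsg* had 5365, 4361 and 5168 CPM in WT and 5443, 5661 and 6236 CPM in KO. All 3 KO values lay above all 3 WT values, with means of 4965 ± 532 and 5779.8 ± 409.9 CPM (SD, n = 3 each) and an exact two-sided permutation p of 0.1, the smallest that 3 against 3 allows. The log2 fold change was 0.22 (SE 0.18, 95% interval -0.18 to 0.62, adjusted p = 0.69 by edgeR). The gap between the groups rested on the scaling, since the groups overlapped in TPM (2819.6 to 3919 in WT, 3432 to 4229.5 in KO) and in CPM scaled by total counts. *Ahsg* and *Fetub* are neighbours on chromosome 16, at 22891277 to 22899449 and 22918334 to 22939778 on the plus strand, with 18884 bases between them. The ratio of their TPM stayed between 8.71 and 10.6 in the 6 livers, with 9.47 for the ratio of the means. The exons of *Ahsg* share 62 bases with the antisense gene *Gm30505*, which had 8 to 30 reads per liver.

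At the level of transcripts, *Fetub* was the least uniform of the 9. *Fetub*-202 took 31.6 to 53.7% of its reads, *Fetub*-201 22.9 to 47.1%, *Fetub*-203 0 to 27.4% and *Fetub*-204 1.24 to 20.3%, and all 4 are annotated as protein-coding. KO mouse 1 had the lowest share of *Fetub*-202 and the highest of *Fetub*-201. *Fgf21*, *Igfbp1* and *Angptl8* have 1 annotated transcript each. In *Igfbp2*, *Lect2* and *Ahsg* a single transcript took at least 95.8%, 98.7% and 98.4% of the reads in every liver, and in *Gdf15* at least 87.1%.

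**Figure D4:**
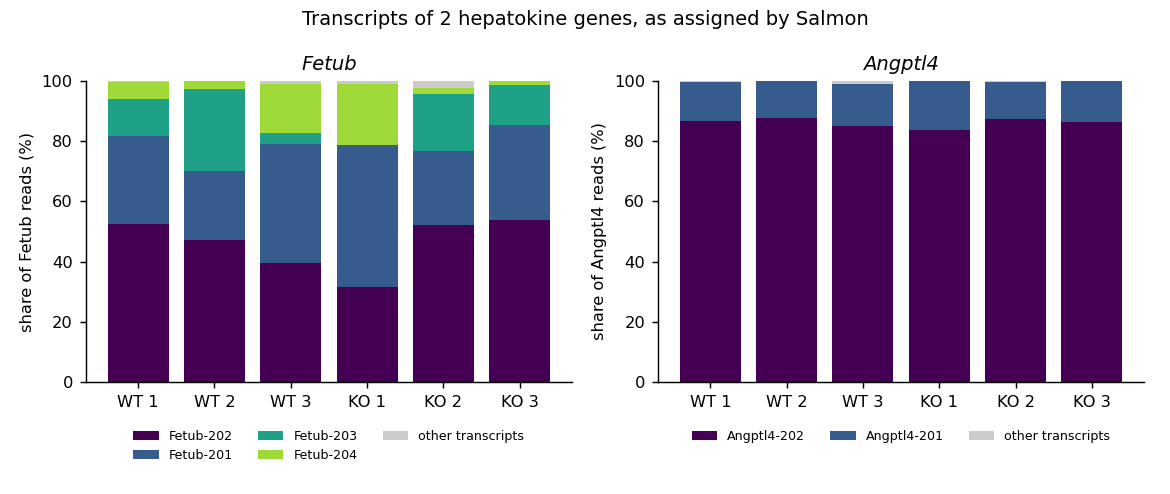
Share of the reads of *Fetub* (left) and *Angptl4* (right) that were assigned to each transcript, in percent, with 1 bar per liver. In *Fetub* the share of *Fetub*-202 runs from 31.6 to 53.7%, and in *Angptl4* that of *Angptl4*-202 from 83.6 to 87.7%.

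Genes linked to the hepatokines were then read from lists chosen by known function. These hold targets of nutrition and stress regulators, transcription factors that act on hepatokine genes, and receptors and partners. Each list is described by its counts beside the share of all genes tested (6.54% with p under 0.05 and higher in KO, 4.78% with p under 0.05 and lower). With scaling by total counts this balance turned, to 4.15% higher and 7.93% lower, so the split of a list into higher and lower is relative to the scaling. None of the list genes was called after adjustment. Of 14 fasting targets of PPAR alpha, 7 had an unadjusted p under 0.05 and all 7 were lower in KO, and the median log2 fold change of the list was -0.76. *Cyp4a14*, a fatty acid omega-hydroxylase, had 2751, 3182 and 2049 CPM in WT and 884, 268 and 82.8 CPM in KO (log2 fold change -2.69, SE 0.70, adjusted p = 0.20 by edgeR). *Cyp4a10*, of the same family, had 2740.5, 3366 and 3752 CPM in WT and 1774, 608 and 428 CPM in KO (-1.81, SE 0.47, adjusted p = 0.20 by edgeR). *Acadm*, which oxidizes medium-chain fatty acids, had 456, 655 and 512 CPM in WT and 407, 321 and 334 CPM in KO (-0.61, SE 0.18, adjusted p = 0.25 by edgeR). KO mouse 1 was the highest of the KO livers in each of these 3 genes, but below every WT liver. Over the whole list the groups did not overlap in 4 of the 14 genes, all lower in KO, beside 8.09% of all genes.

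As a mean over the 14 genes, centred on the 6 livers, the PPAR alpha targets stood at 0.21, 1.04 and 0.46 (log2) in WT and at 0.48, -0.97 and -1.22 in KO. KO mouse 1, with the highest *Fgf21*, thus lay among the WT livers, and KO mice 2 and 3, with 1 and 3 reads of *Fgf21*, were the 2 lowest. Without KO mouse 1, 12 of the 14 targets had p under 0.05 and were lower in KO, beside 8.12% of all genes. Without any other liver it was 4 to 9 of the 14, beside 3.17% to 3.81% of all genes.

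**Figure D5:**
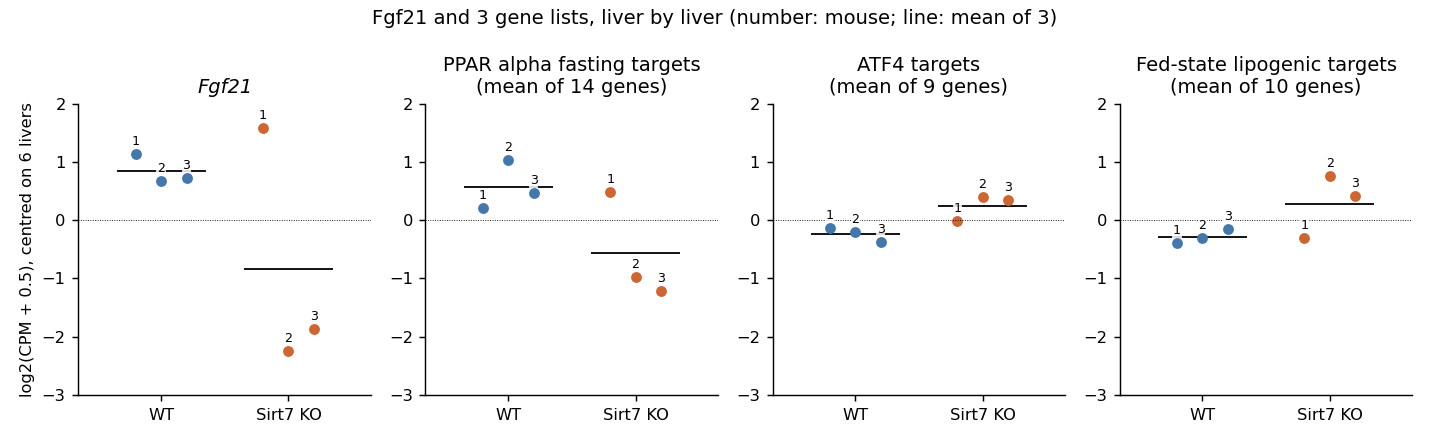
*Fgf21* and the means of 3 gene lists as log2(CPM + 0.5), centred on the 6 livers, with 1 point per mouse (blue, WT; orange, *Sirt7* KO; the number is the mouse) and a line at the mean of 3. KO mouse 1 stands at 0.48 for the PPAR alpha targets and KO mice 2 and 3 at -0.97 and -1.22, and for the fed-state genes KO mouse 1 stands at -0.31 and KO mice 2 and 3 at 0.75 and 0.41.

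Of 15 ATF4 targets, 9 had enough reads to be tested. There 3 had an unadjusted p under 0.05 and were higher in KO and 1 was lower, with a median of 0.29. *Asns*, asparagine synthetase, had 0.847, 6.99 and 1.04 CPM in WT and 7.88, 30.1 and 47.3 CPM in KO (log2 fold change 3.29, SE 0.84, adjusted p = 0.20 by edgeR). *Chac1*, a glutathione-degrading enzyme, had 1.69, 0.544 and 3.11 CPM in WT and 3.57, 5.30 and 7.80 CPM in KO (1.62, SE 0.56, adjusted p = 0.33 by edgeR). *Vldlr*, a lipoprotein receptor, had 6.18, 1.91 and 1.55 CPM in WT and 1.19, 0.954 and 0.385 CPM in KO (-1.91, SE 0.67, adjusted p = 0.33 by edgeR). *Chac1* rested on 6 to 81 reads per liver and *Vldlr* on 4 to 73. With a minimum mean of 50 reads, 2 genes of the list had p under 0.05. The mean of the 9 stood at -0.14, -0.21 and -0.38 (log2) in WT and at -0.01, 0.40 and 0.35 in KO. The livers with the highest means of ATF4 targets, KO mice 2 and 3, were those with the fewest *Fgf21* reads. *Asns* weighs heavily in these means, with a log2 fold change of 3.29 beside the list median of 0.29. A mean without *Asns* was not taken, so the order of the livers may rest on this gene. Without KO mouse 3, 1 of the 12 targets then tested was higher in KO at p under 0.05, beside 4.76% of all genes.

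Of 11 fed-state targets of insulin, SREBP1c and ChREBP, 10 were tested, 4 had an unadjusted p under 0.05 and were higher in KO and 1 was lower, with a median of 0.41. *Fasn*, fatty acid synthase, had 39.6, 44.6 and 56.7 CPM in WT and 67.8, 221 and 124 CPM in KO (log2 fold change 1.55, SE 0.37, adjusted p = 0.17 by edgeR). *Elovl6*, a fatty acid elongase, had 11.7, 17.2 and 17.2 CPM in WT and 22.0, 33.7 and 29.7 CPM in KO (0.89, SE 0.22, adjusted p = 0.19 by edgeR). *Acly*, ATP citrate lyase, had 53.7, 58.5 and 61.0 CPM in WT and 60.0, 189 and 112 CPM in KO (1.06, SE 0.34, adjusted p = 0.29 by edgeR). KO mice 2 and 3 were the 2 highest livers in each of the 3 genes, and KO mouse 1 was the lowest of the KO livers. *Angptl8*, the fed-state hepatokine, had 23.6 and 45.1 CPM in the same KO mice 2 and 3, near both ends of its range. Leaving out KO mouse 2 left 2 of the 10 fed-state genes higher in KO at p under 0.05, beside 4.42% of all genes. Leaving out KO mouse 1 gave 6, beside 8.97% of all genes.

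Among 20 transcription factors known to act on hepatokine genes, 1 had an unadjusted p under 0.05 and was higher in KO and 4 were lower, with a median of -0.20. *Cebpb* had 56.9, 68.1 and 28.1 CPM in WT and 34.1, 11.1 and 5.01 CPM in KO (log2 fold change -1.60, SE 0.59, adjusted p = 0.36 by edgeR). *Srebf1*, which encodes SREBP1, had 35.4, 57.0 and 92.9 CPM in WT and 67.8, 134 and 183 CPM in KO (1.05, SE 0.40, adjusted p = 0.36 by edgeR). *Ppara* had 100.1, 163 and 150.4 CPM in WT and 117, 83.0 and 77.4 CPM in KO (-0.57, SE 0.23, adjusted p = 0.38 by edgeR). KO mouse 1 was the KO liver within the WT range, as for the mean of the PPAR alpha targets but not for *Cyp4a14*, *Cyp4a10* and *Acadm*. Without KO mouse 2, 0 of the 20 had p under 0.05, beside 4.42% of all genes higher in KO and 3.17% lower.

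Of 15 receptors and partners through which the hepatokines act, 13 were tested, and *Gfral* and *Ret*, the GDF15 receptor pair, had too few reads. *Fgfr1*, an FGF21 receptor, had 4.06, 4.26 and 6.36 CPM in WT and 13.3, 11.3 and 16.4 CPM in KO, with no overlap. Its log2 fold change of 1.47 (SE 0.26, adjusted p = 0.11 by edgeR) did not pass the adjusted threshold. *Lipg*, endothelial lipase, had 1.95, 4.90 and 7.10 CPM in WT and 2.29, 1.91 and 1.83 CPM in KO (-1.21, SE 0.48, adjusted p = 0.38 by edgeR). It rested on 18 to 96 reads per liver, and with a minimum mean of 50 reads 1 gene of the list had p under 0.05. In the list 1 gene had an unadjusted p under 0.05 and was higher in KO and 1 was lower, with a median of 0.10. Without KO mouse 1 it was 3 higher and 1 lower, beside 8.97% and 8.12% of all genes.

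The genes whose pattern over the 6 livers was most like that of *Fgf21*, among 8913 genes with a mean of at least 50 reads, were *Nectin3*, *Rpl11*, *Eif4a1*, *Ap3s1* and *Slmapos2*, with Pearson correlations of 0.991 to 0.987 on the log2(CPM + 0.5) scale. With 6 points that share their libraries and many genes to choose from, this is a description. No other hepatokine was near these values, the closest being *Angptl4* at 0.65 (rank 1403) and *Igfbp1* at 0.55, and *Lect2* was lowest at -0.73. By Spearman rank correlation *Igfbp1* was closest at 0.54, and *Angptl4* stood at 0.20.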

How the data were processed

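Liver RNA-seq of 6 mice was used, with genotype and mouse number from the sample labels. The authors trimmed reads with Trim Galore 0.6.5, quantified them against the GRCm38 mouse transcriptome with Salmon 1.2.1 and deposited, per liver, estimated counts and TPM for each transcript. Replicates were not pooled, and effective lengths were identical in all tables. Transcripts were mapped to GENCODE M21 genes (139172 of 140992 with the same version, 619 with another, 1201 with no gene and left out, 0.303 to 0.492% of reads), summed per gene and rounded. Differences were tested with edgeR 4.0.16 (R 4.3.3), by the quasi-likelihood test with TMM scaling and filterByExpr defaults, over 12524 genes with Benjamini-Hochberg adjustment. CPM is scaled by TMM. Standard errors and 95% intervals were derived from the test statistic of the same fit and its unshrunken coefficient. The printed log2 fold change is slightly shrunken, so an interval need not be centred on it. DESeq2 1.42.0 and other scalings, filters and thresholds, a replicate block and leaving out each mouse were alternatives. For 1 gene at a time, livers were also exchanged between the groups in all ways (exact two-sided permutation test on log2(CPM + 0.5)). The procedure was also run on counts simulated with the spread of each gene from the same fit. That run does not show the power for a gene as split as *Fgf21*.

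The named genes are the 9 hepatokines, *Sirt7*, in each list up to 3 genes with the smallest p among those with p under 0.05, and the 5 genes most like *Fgf21*. The members and lists were chosen with earlier results of these data known. Nothing states whether library batches differed or molecular identifiers were used, so intervals from reads cover counting error only. The edgeR p-values weigh a group difference against the spread between these mice, moderated with the trend over all genes tested. Library preparation did not mark the strand, so overlapping antisense reads cannot be told apart.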

Additional observations from a re-analysis of the deposited data

How the results depend on the processing

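The number of genes called was 1 with all livers, with RLE or upper-quartile scaling and with a minimum mean of 50 reads. It was 2 with scaling by total counts, 2 with average transcript length offsets, 633 with no filter on low counts, 257 with DESeq2, 240 with DESeq2 and length offsets, and 925 at an unadjusted p with the same fold, and leaving out each mouse gave 0 to 252. The number of hepatokines called was 0 under every setting but 1, the fit without *Sirt7* KO mouse 1, which called *Fgf21*, so the range over mice left out was 0 to 1. For *Fgf21* the log2 fold change ran from -4.48 to -0.17 over the mice left out. With a minimum mean of 50 reads *Fgf21* was not tested. Scaling by total counts turned *Igfbp2* to -0.09 and *Angptl8* to -0.06, and the ranges over mice left out spanned 0 for *Igfbp1* (-1.18 to 0.51), *Igfbp2* (-0.20 to 0.18), *Angptl8* (-0.21 to 0.26) and *Gdf15* (-0.17 to 0.43). With no filter on low counts *Igfbp1* came closest to a call (adjusted p = 0.06 by edgeR), and *Fetub* did not pass without WT mouse 1 (adjusted p = 0.53 by edgeR). With the mouse number as a replicate block 41 genes and 0 hepatokines were called, and *Fgf21* stood at -2.01 (adjusted p = 0.51 by edgeR). Mice with the same number had correlations of 0.0652, 0.08 and -0.0437 in their deviations from the group means. Mice 1 and 2 correlated best with their own number, and mouse 3 did not. The block was not used, since the labels name no pairing. The cause of these changes was not tested. At 1 to 3 reads, *Fgf21* in KO mice 2 and 3 is known only within its counting interval.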

Other observations

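The IGF axis, which *Igfbp1* and *Igfbp2* serve, was read from 9 further genes, of which 8 were tested, 1 had an unadjusted p under 0.05 and was higher in KO, and 1 was lower, with a median log2 fold change of 0.07. With scaling by total counts it was 0 higher and 2 lower, beside 4.15% and 7.93% of all genes. Without WT mouse 1, WT mouse 2, KO mouse 2 or KO mouse 3, 0 were higher, beside 4.42% to 5.43% of all genes. *Socs2*, a feedback inhibitor of growth hormone signalling, had 44.5, 20.1 and 35.1 CPM in the WT livers and 10.1, 12.1 and 14.3 CPM in the KO livers, with no overlap. Its log2 fold change was -1.45 (SE 0.28, adjusted p = 0.14 by edgeR). *Ghr*, the growth hormone receptor, had 265, 301 and 326 CPM in WT and 339, 403 and 412 CPM in KO, also with no overlap (0.37, SE 0.15, adjusted p = 0.40 by edgeR). *Igf1* itself had a log2 fold change of -0.02 (adjusted p = 0.97 by edgeR). *Igf1* was named for its place in the axis after its value had been seen.

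Among 18 other secreted proteins of the liver, 17 were tested, 2 had an unadjusted p under 0.05 and were higher in KO, and 3 were lower, with a median of -0.21. *Enho*, which encodes the peptide adropin, had 9.23, 3.90 and 7.18 CPM in WT and 11.1, 19.9 and 22.9 CPM in KO (log2 fold change 1.40, SE 0.36, adjusted p = 0.20 by edgeR). *Tsku*, the hepatokine tsukushi, had 35.3, 60.3 and 48.7 CPM in WT and 24.3, 11.7 and 29.0 CPM in KO (-1.15, SE 0.32, adjusted p = 0.22 by edgeR). *Inhbc*, which encodes an activin subunit, had 104, 117 and 84.5 CPM in WT and 80.4, 48.1 and 57.5 CPM in KO (-0.71, SE 0.21, adjusted p = 0.25 by edgeR). Over the whole list the groups did not overlap in 4 of the 17 genes, 1 higher and 3 lower in KO, beside 16.8% of all genes tested. Without WT mouse 1, 4 genes were higher in KO at p under 0.05 and 2 lower, beside 5.43% and 3.77% of all genes. Without KO mouse 1, 1 gene was higher and 6 were lower, beside 8.97% and 8.12% of all genes. The balance of this list thus changed with the liver left out.

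The summed markers of liver endothelium were 56.2 to 71.1 CPM in WT and 61.8 to 90.8 CPM in KO, those of stellate cells 162 to 205 and 133 to 208 CPM, and those of cholangiocytes 47.3 to 72.7 and 53.4 to 71.0 CPM. Pancreatic acinar markers, of a tissue that also makes *Fgf21*, summed to 0.148 to 1.27 CPM in WT and 0.916 to 1.54 CPM in KO, with *Pnlip* at 0 reads in every liver. Red blood cell markers summed to 374 to 546 CPM in WT and 446 to 915 CPM in KO.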
